A study of Mus musculus with 12 samples.

Results

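Germinal center (GC) B cells of wild-type (WT) mice were compared with naive B cells of unimmunized WT mice across all genes. The comparison used 6 of the 12 RNA-seq libraries of the series, 3 of WT GC B cells and 3 of WT naive B cells, which were found by their labels alone. The naive cells were sorted as B220+ cells from the spleens of unimmunized C57BL/6 mice. The GC cells were sorted as B220+PNA+GL7+ cells from the spleens of C57BL/6 mice that had received sheep red blood cells (SRBC) 14 days before. The mice were 8 to 10 weeks old unless otherwise stated in the study's methods, and the 3 libraries of a group are described there as biological replicates. The other 6 libraries came from the same 2 populations in B-KO mice, whose floxed miR-146a gene is deleted by cre under the CD21 promoter, and they were used to estimate the spread and to set the WT values beside a second pair of groups. The naive and GC cells came from different animals, so the cell state, the immunization and the sorting gate cannot be told apart. The B220+ gate takes follicular and marginal zone B cells together and does not remove GC cells or other cells that carry B220.

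GCs are structures in the follicles of lymphoid organs in which B cells that have met antigen divide rapidly and compete for help from T follicular helper cells. They cycle between a dark zone, where they divide and mutate their antibody genes, and a light zone, where they bind antigen and meet T cells. Bcl6, a transcriptional repressor, is required for GC B cells to form. Naive follicular B cells are small resting cells that recirculate between blood and lymphoid organs, carried by homing receptors such as CCR7 and the sphingosine phosphate receptor S1PR1.

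Values are RPKM as deposited, scaled by the authors so that they run 10 times higher than the usual RPKM. The WT naive libraries held 30494141 to 34802700 transcript-assigned reads and the WT GC libraries 27020010 to 34532563. Of 24063 gene symbols, 13704 reached 1 RPKM in 3 or more of the 12 libraries and were tested, and 10359 were not. On the first principal component of all 12 libraries (70.9% of the variance) the WT naive libraries lay between -71.28 and -63.81, WT GC replicates 1 and 2 at 70.00 and 70.38, and WT GC replicate 3 at 46.65. Among the WT libraries, WT GC replicate 3 stood apart in 2 further ways. It carried the Y-linked gene Ddx3y at 388.9 RPKM, against at most 0.193 in the other 5 WT libraries, and for 65.1% of the genes called it was the GC library nearest to the naive ones. For several groups and calls that rest on it, the result without it is given below. For other genes only the value of each library is given. Without it, 7 of the genes named by rule that were not called gained a call.

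The 2 states differed in most of the genes expressed. limma called 4348 of 13704 genes higher in WT GC (31.7%) and 4143 lower (30.2%) at an adjusted p under 0.05. A change of at least 2-fold on the log2(RPKM + 1) scale was called for 1716 genes higher (12.5%) and 1587 lower (11.6%). Large rises outnumbered large falls, with 663 genes at least 4-fold higher and 448 at least 4-fold lower, and with 105 genes at least 16-fold higher and 6 at least 16-fold lower. The 3 GC libraries all lay above the 3 naive libraries for 4680 genes (34.2%) and all below them for 4540 genes (33.1%). The median log2 fold change of all genes tested was 0.0054, so the medians of the gene groups below can be read against a value near 0 and their shares against 31.7% and 30.2%. RPKM gives a gene's share of its library. In such bulk samples fewer cells that express a gene and less of its RNA in each cell cannot be told apart.

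**Figure D1:**
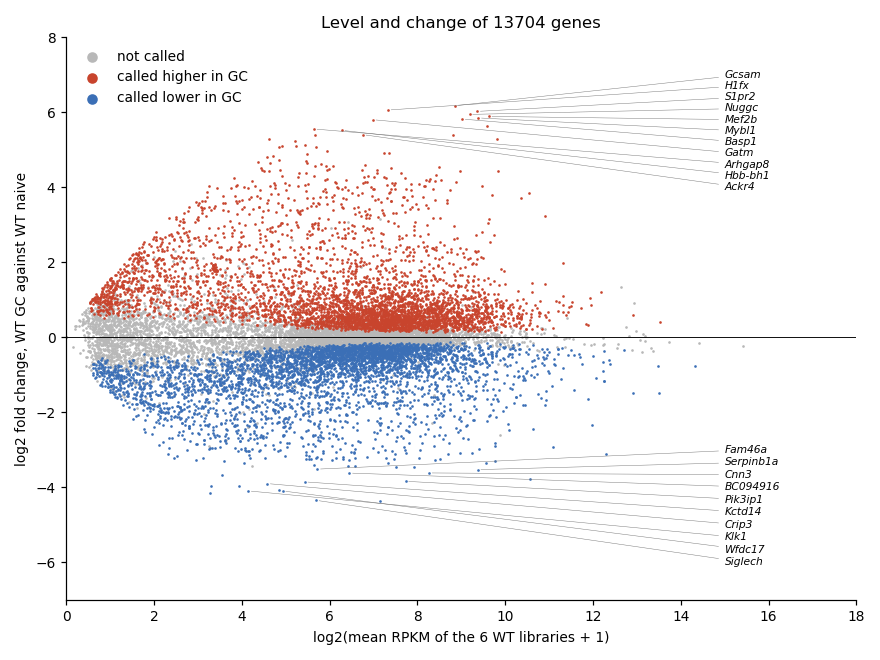
Level and change of the 13704 genes tested. Each point is a gene, the horizontal axis gives log2(mean RPKM of the 6 WT libraries + 1) and the vertical axis the log2 fold change of WT GC against WT naive. Red points are the 4348 genes called higher, blue points the 4143 called lower and gray points the genes not called. Of the genes with the largest rise and the largest fall under the naming rule, 11 and 10 are labelled, and the rises reach further from 0 than the falls.

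The markers matched the labels. Bcl6 was at 195, 274 and 234 RPKM in WT naive and 875, 812 and 858 in WT GC libraries. All 3 GC libraries lay above the naive ones (log2 fold change 1.87, standard error 0.13, limma adjusted p = 2.38e-06). Fcer2a, which encodes the low-affinity IgE receptor CD23 of follicular B cells, was at 2943, 3027 and 2856 RPKM in WT naive and 893, 801 and 1089 in WT GC libraries and fell without overlap (log2 fold change -1.68, standard error 0.13, limma adjusted p = 3.53e-06). Among 20 genes of GC B cell identity, 17 rose and none fell, with a median log2 fold change of 4.08. The 3 that were not called were Spib, Stap1 and Cd83, the last a light zone marker (the first pair named after their values were seen). S1pr2, whose product holds GC B cells inside the follicle, was at 8.28, 29.3 and 27.2 RPKM in WT naive and 1299, 1318 and 1269 in WT GC libraries (log2 fold change 6.02, standard error 0.63, limma adjusted p = 1.55e-05). The transcription factor gene Mef2b was at 11.8, 43.5 and 30.5 RPKM in WT naive and 1658, 1486 and 1514 in WT GC libraries (log2 fold change 5.89, standard error 0.54, limma adjusted p = 7.09e-06). Both genes had their lowest value in WT naive replicate 1, as did Gcsam and Mki67. The B220+ gate of the naive libraries does not remove GC cells, and a share of GC cells in them was not tested. Rgs13, a regulator of G protein signaling, reached 1859.6, 2002 and 1368 RPKM in WT GC and 24.2, 38.4 and 84.3 in WT naive libraries, and Fas, the death receptor used to define GC cells by flow cytometry, 591, 647 and 595 RPKM in WT GC and 28.5, 40.3 and 48.5 in WT naive libraries. Rgs13 rose by 5.29 and Fas by 3.96 on the log2 scale. Neil1, a DNA glycosylase gene, rose by 3.85 and Efnb1, which encodes ephrin B1, by 4.92.

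Genes of the resting follicular state mostly fell. Of 20 tested, 17 fell and 1 rose, with a median log2 fold change of -1.63. Klf2, a transcription factor gene that keeps lymphocytes quiescent and drives S1pr1, was at 1111, 1156 and 1140.2 RPKM in WT naive and 76.6, 79.4 and 469.6 in WT GC libraries (log2 fold change -2.99, standard error 0.74, limma adjusted p = 0.00463). WT GC replicate 3 was the highest of the GC libraries and still under every naive value. Cd38, a surface enzyme that murine GC B cells are known to lack, was at 899, 927 and 875 RPKM in WT naive and 97.6, 118 and 231 in WT GC libraries (log2 fold change -2.69, limma adjusted p = 3.18e-05). Btla, an inhibitory receptor, fell by 1.42, Bank1, an adaptor of antigen receptor signaling, fell by 1.59 and Cxcr5, the receptor that brings B cells into follicles, fell by 0.95 on the log2 scale. The single gene of the list that rose was Bach2, a repressor of plasma cell fate, at 268, 317 and 275 RPKM in WT naive and 560.3, 518 and 535 in WT GC libraries (log2 fold change 0.91, standard error 0.09, limma adjusted p = 8.79e-06).

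**Figure D2:**
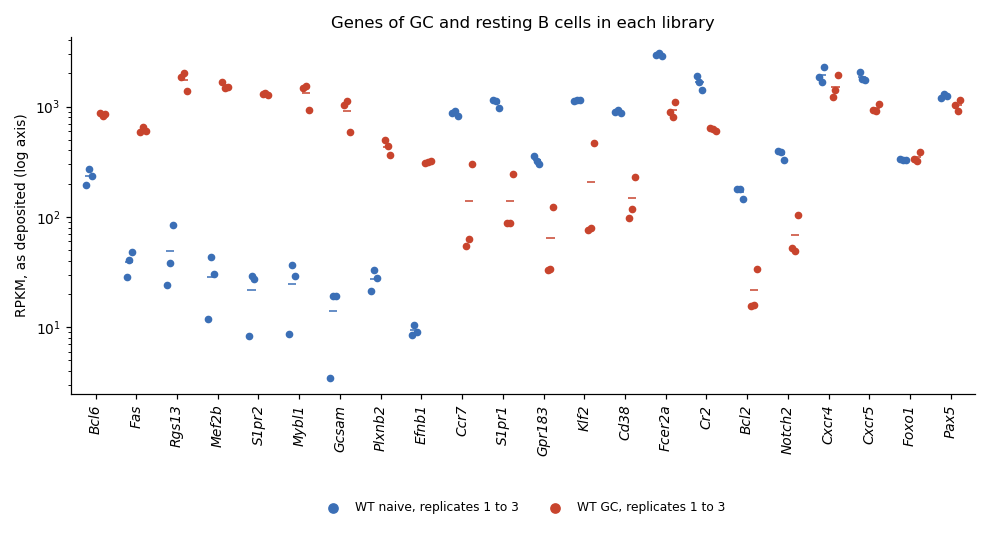
RPKM of 22 genes of GC and resting B cells in each of the 6 WT libraries, on a log axis. Blue points are WT naive and red points WT GC libraries, replicates 1 to 3 from left to right, and the short lines are group means. The first 9 genes lie higher in all GC libraries and the next 9, Ccr7 to Notch2, lower, while among the last 4 the groups of Cxcr4 and Foxo1 overlap.

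The largest changes went beyond known GC markers. Among the largest rises were those of Gcsam, H1fx, S1pr2, Nuggc, Mef2b, Mybl1, Basp1, Gatm, Arhgap8, Hbb-bh1 and Ackr4, from 6.17 down to 5.40 on the log2 scale. Gcsam, a signaling adaptor of GC B cells, was at 3.49, 19.2 and 19 RPKM in WT naive and 1036, 1121 and 586 in WT GC libraries. H1fx, a linker histone gene, was at 0.929, 9.5 and 3.92 RPKM in WT naive and 406, 302 and 238 in WT GC libraries. Gatm encodes the first enzyme of creatine synthesis. It was at 1.26, 6.0 and 4.36 RPKM in WT naive and 279, 281 and 185 in WT GC libraries (log2 fold change 5.80, standard error 0.59, limma adjusted p = 1.21e-05). Ackr4, a scavenger receptor for the chemokines CCL19 and CCL21, was at 2.34, 4.23 and 5.16 RPKM in WT naive and 244, 265 and 124 in WT GC libraries (log2 fold change 5.40, standard error 0.55, limma adjusted p = 1.27e-05). In both, WT GC replicate 3 had the lowest GC value. Hbb-bh1, an embryonic globin gene, was at 1.08, 2.38 and 3.7 RPKM in WT naive and 124, 209 and 119.9 in WT GC libraries, while adult globin genes fell. These genes are close copies of one another, and Hbb-bs was at 199, 291 and 256 RPKM in WT naive and 11.9, 157 and 49 in WT GC libraries (log2 fold change -2.40, limma adjusted p = 0.0093).

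Among the largest falls were those of Siglech, Wfdc17, Klk1, Crip3, Kctd14, Pik3ip1, BC094916, Cnn3, Serpinb1a and Fam46a. Pik3ip1, which encodes an inhibitor of PI3K, was at 466, 266 and 448 RPKM in WT naive and 17.8, 17.8 and 52.8 in WT GC libraries (log2 fold change -3.84, standard error 0.49, limma adjusted p = 5.44e-05). Serpinb1a, a gene for an inhibitor of granule proteases, was at 1126, 1019 and 1502 RPKM in WT naive and 67.2, 93.7 and 172 in WT GC libraries (log2 fold change -3.53, standard error 0.38, limma adjusted p = 1.82e-05). Siglech is a defining gene of plasmacytoid dendritic cells, which carry B220. It was at 66.4, 91.5 and 134 RPKM in WT naive and 2.06, 4.48 and 4.96 in WT GC libraries (log2 fold change -4.35, standard error 0.34, limma adjusted p = 3.23e-06), and a share of such cells in the B220+ gate was not tested.

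A stricter rule counted genes that were off in one state and on in the other. A total of 21 genes were at 10 RPKM or more in all 3 GC libraries and under 1 in all 3 naive ones, and 3 had the reverse pattern. These genes were chosen by their values and carry no test here. Usp2, which encodes a ubiquitin-specific protease, was at 0.919, 0.537 and 0.497 RPKM in WT naive and 51.4, 44.5 and 38.5 in WT GC libraries. Cttn, which encodes the actin-binding protein cortactin, was at 0.212, 0.371 and 0.723 RPKM in WT naive and 23.7, 30.2 and 24.2 in WT GC libraries. Ido1, which encodes the tryptophan-degrading enzyme indoleamine dioxygenase, was at 0.219, 0.385 and 0.856 RPKM in WT naive and 14.7, 17.3 and 11.4 in WT GC libraries. The others were Mir7678, Adhfe1, Emp2, Lrrc3, Pdzd3, Papln, Rnf183, Aif1l, 1700030O20Rik, Dlg5, Apoc2, Tmem52, C8a, 4930500J02Rik, Cobl, Gm6416, Dkk3 and Evc2. In naive cells the genes were Cd209d, Adam11 and Mir5129, and Cd209d, a C-type lectin gene, was at 11.5, 15.1 and 26.2 RPKM in WT naive and 0, 0 and 0.433 in WT GC libraries. Mir7678 and Mir5129 are transcripts of only 70 and 77 bases.

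**Figure D3:**
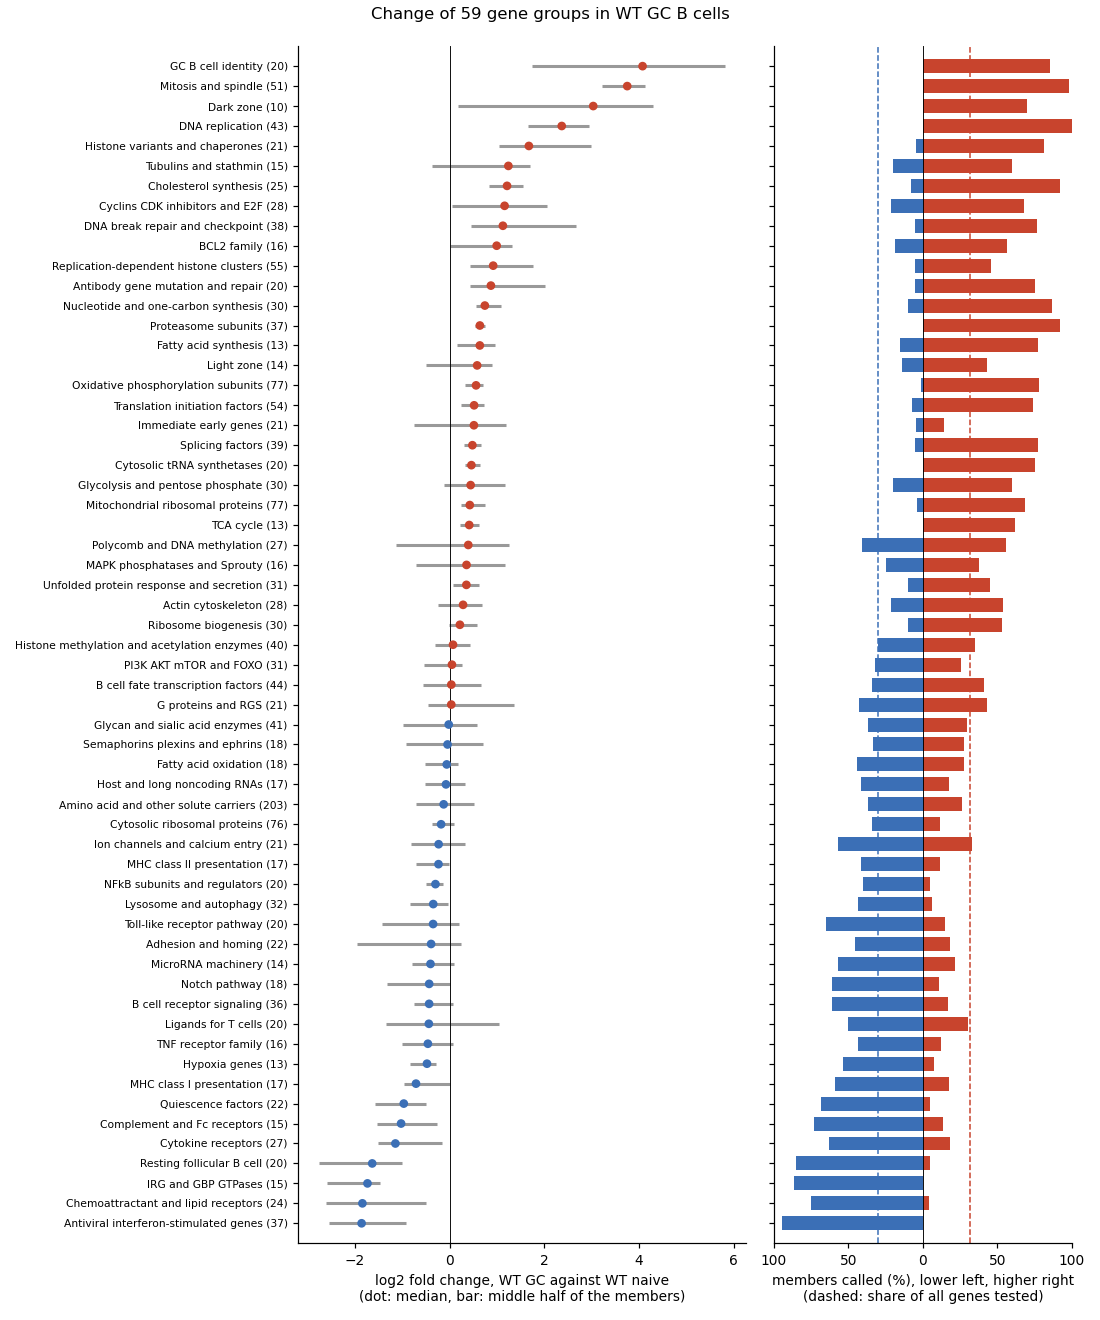
Change of 59 gene groups, ordered by their median, with the number of tested members in brackets. On the left the dot is the median log2 fold change (red above 0, blue below) and the bar spans the quartiles of the members. On the right the bars give the share of members called higher (red, to the right) and lower (blue, to the left), with dashed lines at 31.7% and 30.2%, the shares of all genes tested. Cell division groups are at the top with GC identity, and interferon-stimulated genes, chemoattractant receptors and GTPases of the IRG and GBP families at the bottom.

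Receptors that position B cells mostly fell. Of 24 tested receptors for chemoattractants and lipids, 18 fell and 1 rose, with a median log2 fold change of -1.84. The single rise was that of S1pr2. S1pr1, which guides lymphocytes out of tissues, was at 1136, 1119.9 and 961 RPKM in WT naive and 88.3, 88 and 245 in WT GC libraries (log2 fold change -3.10, standard error 0.39, limma adjusted p = 5.37e-05). Ccr7, which draws B cells to the T cell zone, was at 878, 911 and 817 RPKM in WT naive and 53.9, 62.5 and 301 in WT GC libraries (log2 fold change -3.10, standard error 0.79, limma adjusted p = 0.00567). Gpr183, the oxysterol receptor that draws activated B cells to the follicle edge, was at 354, 324 and 302 RPKM in WT naive and 33.3, 33.9 and 124 in WT GC libraries (log2 fold change -2.62, standard error 0.56, limma adjusted p = 0.00188). WT GC replicate 3 was the highest GC library in these genes, and no GC value reached the naive range. Gpr174, a lysophosphatidylserine receptor gene, fell by 2.91, Lpar6, a lysophosphatidic acid receptor gene, fell by 2.68, S1pr4 fell by 2.09 and Gpr18 fell by 1.40. Cxcr4, the receptor that brings cells to the dark zone, was at 1859.8, 1675 and 2300.3 RPKM in WT naive and 1217, 1422 and 1915 in WT GC libraries, and its groups overlapped (log2 fold change -0.37, limma adjusted p = 0.184).

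Of 21 genes of G proteins and their regulators, 9 rose and 9 fell. Gna13, the G protein subunit through which S1PR2 signals, was at 273, 305 and 276 RPKM in WT naive and 694, 733 and 786 in WT GC libraries (log2 fold change 1.37, standard error 0.11, limma adjusted p = 3.55e-06). Rgs10 rose by 1.88, Rgs2 by 1.63 and Gna12 by 1.14 on the log2 scale, and Arhgef18, a guanine nucleotide exchange factor gene, fell by 3.24. Rgs1 was at 2.97, 3.48 and 6.76 RPKM in WT naive and 8.97, 10.8 and 812 in WT GC libraries, high in WT GC replicate 3 alone, and was not called (limma adjusted p = 0.0933). Among 22 adhesion genes 10 fell and 4 rose. Itgb7, which encodes the integrin beta 7 chain of gut homing, was at 597, 647 and 503 RPKM in WT naive and 55.1, 62.3 and 131 in WT GC libraries (log2 fold change -2.90, standard error 0.37, limma adjusted p = 5.19e-05). Its partner chain gene Itga4 fell by 2.16 and Pecam1 fell by 2.08. Itgb1, the integrin beta 1 chain, was at 129.8, 132 and 134 RPKM in WT naive and 326, 426 and 390.0 in WT GC libraries and rose (log2 fold change 1.51, standard error 0.16, limma adjusted p = 1.85e-05). Of 18 genes of semaphorins, plexins and ephrins, 5 rose and 6 fell, close to the shares of all genes tested. Plxnb2, a semaphorin receptor gene, was at 21.3, 32.9 and 28.2 RPKM in WT naive and 494, 438 and 361 in WT GC libraries, and Sema7a and Sema4d also rose, by 1.77 and 0.77. Sema4b fell by 1.66 and Plxnd1 by 2.42 on the log2 scale.

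Nearly all interferon-stimulated genes fell. Type I interferons act through the factor ISGF3, which contains IRF9 and binds the interferon-stimulated response element (ISRE). Of 37 antiviral interferon-stimulated genes tested, 35 fell and none rose, with a median log2 fold change of -1.86. Ifit3, whose product takes part in antiviral RNA sensing, was at 57.6, 58.9 and 50.2 RPKM in WT naive and 5.66, 3.73 and 12.2 in WT GC libraries (log2 fold change -2.92, standard error 0.44, limma adjusted p = 0.00018). Mx1, an antiviral GTPase gene, was at 75.7, 81.4 and 72.7 RPKM in WT naive and 5.32, 6.74 and 24.5 in WT GC libraries (log2 fold change -2.85, standard error 0.57, limma adjusted p = 0.00124). Isg15, a ubiquitin-like modifier gene, was at 99.9, 73.4 and 60.3 RPKM in WT naive and 28.5, 26.1 and 46.3 in WT GC libraries (log2 fold change -1.20, standard error 0.32, limma adjusted p = 0.00655). All 3 genes had GC libraries wholly below the naive ones. Samd9l, a restriction factor gene, fell by 2.08, Irf9 fell by 1.52 and Parp14 fell by 1.07 on the log2 scale. The summed level of the 37 genes was 8341, 8550 and 9184 RPKM in WT naive and 3043, 3170 and 3936 in WT GC libraries.

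The IRG and GBP GTPases, which attack the vacuoles of intracellular parasites and bacteria, fell too. Of 15 tested, 13 fell and none rose, with a median log2 fold change of -1.73. Irgm1, a regulator of this family, was at 464, 475 and 429 RPKM in WT naive and 58.6, 60 and 111 in WT GC libraries (log2 fold change -2.62, standard error 0.27, limma adjusted p = 1.31e-05). Gbp2, a guanylate-binding protein gene, was at 135, 117 and 147 RPKM in WT naive and 28, 29.9 and 37.4 in WT GC libraries (log2 fold change -2.04, standard error 0.19, limma adjusted p = 8.63e-06). Gbp5 fell by 2.78, Gbp3 fell by 1.70 and Gbp4 fell by 1.45. Iigp1 was at 5.81, 5.68 and 5.12 RPKM in WT naive and 0.986, 2.23 and 3.02 in WT GC libraries and was not called (log2 fold change -1.14, limma adjusted p = 0.0829). Genes for the receptors of both interferons, Ifnar1, Ifnar2, Ifngr1 and Ifngr2, were among the cytokine receptors that fell (named here after their values were seen). In the naive libraries the plasmacytoid dendritic cell gene Siglech was also higher. Of 21 genes of T and natural killer cells 12 were lower in GC (57.1%) and 4 higher (19.0%). The shares of all genes tested were 30.2% and 31.7%. The part of such cells in the interferon group was not tested.

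The promoters of these genes often held a short sequence. A window from 250 bases before to 50 after the RefSeq start (GRCm38.p6) could be matched to 9583 of the genes tested. The ISRE core was searched as GAAANNGAAA on both strands. It was found in 13 of 26 promoters of interferon-stimulated genes (50%) and in 8 of 9 of IRG and GBP genes (88.9%), against 3.26% of all 9583. Among genes called at least 2-fold lower it was present in 6.81% of promoters, and among those at least 2-fold higher in 3.01%. The match is a description of the letters and not of binding. Shown are the 300 bases of 4 such promoters, 5′ to 3′ on the strand of the gene, with the ISRE matches in capitals, because all 4 genes fell in GC cells and carry the element in different numbers and orientations. They lie in GRCm38 at chr19:34583279-34583578 (plus strand) for Ifit3, chr4:156200769-156201068 (minus strand) for Isg15, chr3:142620413-142620712 (plus strand) for Gbp2 and chr11:48871371-48871670 (minus strand) for Irgm1.
Ifit3: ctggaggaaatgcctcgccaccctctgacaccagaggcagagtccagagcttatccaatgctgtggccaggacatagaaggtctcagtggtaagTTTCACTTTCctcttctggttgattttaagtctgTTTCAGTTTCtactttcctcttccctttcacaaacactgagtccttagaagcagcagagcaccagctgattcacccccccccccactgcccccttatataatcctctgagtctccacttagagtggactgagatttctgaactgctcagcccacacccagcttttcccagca
Isg15: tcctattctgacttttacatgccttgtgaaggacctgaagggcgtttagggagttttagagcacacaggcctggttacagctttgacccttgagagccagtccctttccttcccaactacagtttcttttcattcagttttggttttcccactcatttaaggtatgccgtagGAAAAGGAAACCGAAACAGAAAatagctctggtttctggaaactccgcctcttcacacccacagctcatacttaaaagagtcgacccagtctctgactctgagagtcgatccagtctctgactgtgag
Gbp2: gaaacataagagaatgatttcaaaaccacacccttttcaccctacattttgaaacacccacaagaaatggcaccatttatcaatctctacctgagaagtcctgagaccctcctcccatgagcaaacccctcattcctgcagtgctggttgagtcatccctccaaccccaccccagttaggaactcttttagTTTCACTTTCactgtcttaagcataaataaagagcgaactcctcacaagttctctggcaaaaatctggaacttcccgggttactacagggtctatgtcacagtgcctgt
Irgm1: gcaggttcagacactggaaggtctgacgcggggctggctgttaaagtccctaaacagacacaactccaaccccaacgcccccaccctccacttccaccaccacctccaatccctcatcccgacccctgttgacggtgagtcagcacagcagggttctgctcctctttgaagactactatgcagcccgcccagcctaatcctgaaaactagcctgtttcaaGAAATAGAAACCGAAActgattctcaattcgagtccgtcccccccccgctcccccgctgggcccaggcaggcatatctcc
Ifit3 held 2 matches on the opposite strand, so that the reverse complement is what shows. Isg15 held 3 in the direction of the gene that overlap one another, Gbp2 held 1 on the opposite strand, and Irgm1 held 2 in the direction of the gene that overlap.

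Genes of antigen presentation fell more often than they rose. Of 17 genes of MHC class I presentation, 10 fell and 3 rose. B2m, which encodes the common light chain of class I molecules, was at 17912, 14833 and 18440.1 RPKM in WT naive and 4847, 5926 and 7907 in WT GC libraries (log2 fold change -1.48, standard error 0.22, limma adjusted p = 0.000183). H2-K1, a class I heavy chain gene, was at 10534, 12141 and 11154 RPKM in WT naive and 3421, 3664 and 5235 in WT GC libraries (log2 fold change -1.48, standard error 0.21, limma adjusted p = 0.000117). Both fell without overlap, as did H2-D1 (log2 fold change -1.17) and H2-Q7 (-2.21), although class I heavy chain genes are near-identical to one another, so that reads may be split among them. The immunoproteasome gene Psmb8 was among the 3 that rose, by 0.57. Among 17 class II presentation genes 7 fell and 2 rose. H2-Aa, a class II alpha chain gene and among the 6 most abundant genes of both states, was at 26857, 25060.0 and 25367 RPKM in WT naive and 13842, 14824 and 16742 in WT GC libraries (log2 fold change -0.77, limma adjusted p = 0.00257). Cd74, the invariant chain gene with the highest RPKM in both states, was at 49378, 48360.2 and 42997 RPKM in WT naive and 37391, 33666 and 50217 in WT GC libraries, and Ciita, the class II transactivator gene, at 824, 891 and 922 RPKM in WT naive and 858, 818 and 1008 in WT GC libraries. Neither Cd74 nor Ciita was called, with log2 fold changes of -0.23 and 0.02. H2-Oa and H2-Ob encode DO, an inhibitor of class II peptide loading, and fell by 0.91 and 0.72. Ctss, the protease that cuts the invariant chain, fell by 1.30.

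Innate sensors mostly fell. Of 20 genes of the Toll-like receptor pathway, 13 fell and 3 rose. Tlr7, the endosomal sensor of single-stranded RNA, was at 253, 227 and 241 RPKM in WT naive and 20.4, 22.2 and 48.4 in WT GC libraries (log2 fold change -3.05, standard error 0.35, limma adjusted p = 2.68e-05). Tlr9, the sensor of unmethylated DNA, was at 316, 377 and 311 RPKM in WT naive and 239, 206 and 251 in WT GC libraries (log2 fold change -0.52, standard error 0.09, limma adjusted p = 0.000433). Tlr7 thus fell by more on the log2 scale than Tlr9 did, a difference between genes that was not tested. Irak3, an inhibitor of the pathway, was at 181, 165 and 119 RPKM in WT naive and 11.4, 8.75 and 23.3 in WT GC libraries (log2 fold change -3.42, standard error 0.32, limma adjusted p = 8.04e-06), and Irak2, a kinase gene, fell by 1.75. Of 20 genes of NFκB and its regulators 8 fell and 1 rose, with a median of -0.30. Ikbkb, the gene of the kinase IKKβ, was at 698, 710.4 and 655 RPKM in WT naive and 289.9, 266 and 324 in WT GC libraries (log2 fold change -1.23, standard error 0.09, limma adjusted p = 2.46e-06). Rel, which encodes c-Rel, was at 366, 412 and 370.1 RPKM in WT naive and 336, 305 and 626 in WT GC libraries and was not called, while Relb fell by 0.54 and Traf1 rose by 1.38.

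Receptors for cytokines fell in larger numbers than they rose. Of 27 tested, 17 fell and 5 rose, with a median log2 fold change of -1.14. Il10ra, which encodes a chain of the IL-10 receptor, was at 753, 712 and 735 RPKM in WT naive and 152, 153 and 208 in WT GC libraries (log2 fold change -2.11, standard error 0.18, limma adjusted p = 4.89e-06). Il5ra, the IL-5 receptor gene, fell by 2.71 and Il27ra fell by 2.66. Il4ra was at 657, 690.3 and 682 RPKM in WT naive and 380.3, 393 and 502 in WT GC libraries and fell by 0.68. Il21r, the receptor for the follicular helper cytokine IL-21, was at 722, 939 and 831 RPKM in WT naive and 930.2, 899 and 1165 in WT GC libraries, with overlapping groups and no call (log2 fold change 0.26, limma adjusted p = 0.124). Tgfbr1 was among the 5 that rose, by 1.32. In the TNF receptor family 7 of 16 fell and 2 rose, Fas and Tnfrsf8 (CD30). Cd40, the receptor for T cell help, was at 483, 561 and 567 RPKM in WT naive and 337, 329 and 373 in WT GC libraries and fell (log2 fold change -0.63, standard error 0.09, limma adjusted p = 0.000117). Tnfrsf13b (TACI), a receptor for BAFF and APRIL, fell by 0.97 and Tnfrsf18 fell by 2.77. Tnfrsf13c, which encodes the BAFF receptor needed for survival, was at 1612, 1659 and 1785 RPKM in WT naive and 1989, 1968 and 2037 in WT GC libraries and was not called.

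Molecules that B cells show to T cells moved both ways. Of 20 tested, 10 fell and 6 rose. Icosl, the ligand of ICOS, was at 1026, 1215 and 847 RPKM in WT naive and 400.0, 371 and 464 in WT GC libraries (log2 fold change -1.31, standard error 0.14, limma adjusted p = 1.48e-05). Cd86, a costimulator of T cells and a light zone marker, was at 177, 149 and 133 RPKM in WT naive and 405, 429 and 473 in WT GC libraries and rose (log2 fold change 1.51, standard error 0.11, limma adjusted p = 2.88e-06). Slamf7 rose by 1.63, Cd200 fell by 1.90 and Cd84 fell by 1.71. Cd80 was at 13.2, 12.9 and 14.9 RPKM in WT naive and 19.2, 13.9 and 17.3 in WT GC libraries and was not called. Cd274, which encodes PD-L1, was called lower at -1.72 on the log2 scale (limma adjusted p = 0.0197), a call lost without WT naive replicate 2 (limma adjusted p = 0.0609), WT GC replicate 1 (0.0793) or WT GC replicate 2 (0.079).

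Complement and Fc receptors mostly fell, and so did genes of antigen receptor signaling. Of 15 complement and Fc receptor genes 11 fell and 2 rose, with a median log2 fold change of -1.02. Cd55, a complement decay factor, was at 1301, 1485 and 1348 RPKM in WT naive and 100.4, 123 and 194 in WT GC libraries (log2 fold change -3.35, standard error 0.30, limma adjusted p = 6.46e-06). Cr2, which encodes complement receptors CD21 and CD35 and is higher still on marginal zone B cells, was at 1891, 1659 and 1404 RPKM in WT naive and 643, 623 and 604 in WT GC libraries (log2 fold change -1.39, standard error 0.24, limma adjusted p = 0.000441). Fcgr2b, the inhibitory IgG receptor gene, was at 936, 898 and 864 RPKM in WT naive and 636, 769 and 902 in WT GC libraries and was not called. Of 36 genes of B cell receptor signaling 22 fell and 6 rose (3 without WT GC replicate 3), with a median of -0.43. Cd79a, a signaling chain of the receptor, was at 6399, 6016 and 6354 RPKM in WT naive and 3122, 3102 and 3795 in WT GC libraries (log2 fold change -0.91, standard error 0.14, limma adjusted p = 0.000169). Cd79b, the other signaling chain, fell by 0.76 and the kinase gene Syk fell by 0.56. Plcg2, the phospholipase downstream of SYK and BTK, was at 686, 698 and 633 RPKM in WT naive and 1050.2, 1028 and 1177 in WT GC libraries and rose (log2 fold change 0.69, standard error 0.08, limma adjusted p = 2.38e-05), as did Pik3ap1, an adaptor to PI3K, by 0.72.

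Of 44 transcription factors of B cell fate 18 rose and 15 fell (40.9% and 34.1%), with a median of 0.04, shares close to the 31.7% and 30.2% of all genes tested. Mybl2, which encodes B-Myb of proliferating cells, rose by 3.74, and the lymphoid factor gene Ikzf1 (Ikaros) rose by 0.81. Hhex, a homeobox gene linked to memory B cells, was at 462, 524 and 428 RPKM in WT naive and 45, 47.8 and 88.3 in WT GC libraries (log2 fold change -3.01, standard error 0.24, limma adjusted p = 3.64e-06). Id3, an inhibitor of E proteins, was at 524, 553 and 604 RPKM in WT naive and 489, 534 and 468 in WT GC libraries and was not called. Pax5, the factor that keeps B cell identity, was at 1204, 1287 and 1237 RPKM in WT naive and 1031, 918 and 1143 in WT GC libraries (log2 fold change -0.27, limma adjusted p = 0.0213), a call lost without WT naive replicate 2 (limma adjusted p = 0.0653) or WT GC replicate 2 (0.0938). Prdm1, which encodes Blimp1 of plasma cells, was at 7.09, 10.2 and 7.66 RPKM in WT naive and 22.2, 20.5 and 48.4 in WT GC libraries (log2 fold change 1.66, standard error 0.52, limma adjusted p = 0.0166). Its call was lost without WT naive replicate 1 (limma adjusted p = 0.0504) or WT GC replicate 3 (0.0635). Plasma cell genes went both ways, with 7 of 14 higher, 3 lower and 4 not called. Igj, which encodes the joining chain of secreted antibody, was at 137, 481 and 696 RPKM in WT naive and 2852, 3286 and 4093 in WT GC libraries (log2 fold change 3.23, standard error 0.57, limma adjusted p = 0.000507), and the summed level of 14 plasma cell genes was 3440, 3878 and 4340 RPKM in WT naive and 7739, 8677 and 10330 in WT GC libraries. Sdc1 (CD138), the usual plasma cell surface marker, fell by 2.26.

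Factors of quiescence fell. Of 22 tested, 15 fell and 1 rose, with a median log2 fold change of -0.97. Klf3 was at 309, 348 and 294 RPKM in WT naive and 26.9, 23.6 and 52.2 in WT GC libraries (log2 fold change -3.26, standard error 0.28, limma adjusted p = 4.94e-06). Cdkn1b, which encodes the inhibitor p27 of cyclin-dependent kinases, was at 572, 535 and 526 RPKM in WT naive and 95.6, 92.5 and 164 in WT GC libraries (log2 fold change -2.25, standard error 0.26, limma adjusted p = 2.85e-05). Slfn2, a Schlafen gene required for lymphocyte quiescence in mice, fell by 2.32, Btg1, an antiproliferative gene, fell by 1.30 and Ypel3 fell by 1.24. Cdkn2c, which encodes the inhibitor p18, was the single rise, by 2.05. The Notch pathway, which instructs marginal zone fate through NOTCH2, had 11 of 18 genes lower and 2 higher. Notch2 was at 392, 387 and 326 RPKM in WT naive and 52.5, 49.2 and 104 in WT GC libraries (log2 fold change -2.49, standard error 0.32, limma adjusted p = 5.41e-05), and its target Hes1 fell by 1.14. Lfng, a glycosyltransferase that modifies Notch, was at 169.6, 178 and 152 RPKM in WT naive and 16.3, 13.9 and 28.2 in WT GC libraries (log2 fold change -3.09, standard error 0.27, limma adjusted p = 5.62e-06). The summed level of 17 genes of marginal zone and B1 cells was 8751, 8552 and 9075 RPKM in WT naive and 5713, 6419 and 7073 in WT GC libraries, and their part in the falls of Notch2 and Cr2 was not tested.

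Among 31 genes of PI3K, AKT and mTOR signaling 10 were lower and 8 higher (5 higher without WT naive replicate 1 or WT GC replicate 3), shares of 32.3% and 25.8% that are close to those of all genes tested. Akt1 was at 306, 324 and 318 RPKM in WT naive and 1007, 930.4 and 821 in WT GC libraries (log2 fold change 1.53, standard error 0.11, limma adjusted p = 2.67e-06), with every GC library above the naive ones. Sesn1, a stress gene that restrains mTORC1, fell by 2.22. Foxo1, a factor of the dark zone, was at 331, 326 and 324 RPKM in WT naive and 333, 322 and 386 in WT GC libraries and was not called.

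The BCL2 family changed on both its pro-survival and its pro-death side. Of 16 tested, 9 rose and 3 fell, with a median log2 fold change of 0.996. Bcl2, the survival gene of resting B cells, was at 178, 179.6 and 145 RPKM in WT naive and 15.4, 15.9 and 33.4 in WT GC libraries (log2 fold change -2.98, standard error 0.29, limma adjusted p = 1.07e-05). Mcl1, the survival gene that GC B cells depend on, was at 2116, 2146 and 2330.2 RPKM in WT naive and 1424, 1457 and 1702 in WT GC libraries (log2 fold change -0.53, standard error 0.12, limma adjusted p = 0.00304). Bcl2l1, which encodes BCL-XL, was at 14, 19.5 and 19.3 RPKM in WT naive and 65.9, 62.9 and 55.5 in WT GC libraries and rose (log2 fold change 1.76, standard error 0.14, limma adjusted p = 3.98e-06). Among pro-death genes Bak1 rose by 1.15, Bid by 1.09, Bad by 1.33 and Bik by 2.04 on the log2 scale. Bik was near the floor, at 0.35, 0 and 0.341 RPKM in WT naive and 5.57, 3.18 and 3.56 in WT GC libraries. Bcl2l11, which encodes BIM, was at 105, 114 and 90.2 RPKM in WT naive and 114, 127 and 177 in WT GC libraries and was not called.

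Among the WT libraries the values of immediate early genes turned on 1 library. Of 21 tested, 3 rose and 1 fell, with a median log2 fold change of 0.52, and without WT GC replicate 3 the median was -0.601 and 8 fell. Fos, a subunit of the AP-1 factor, was at 11.5, 15.7 and 10.9 RPKM in WT naive and 21.8, 17.2 and 840.0 in WT GC libraries. Nr4a1, an orphan nuclear receptor gene induced by antigen, was at 98, 138 and 112 RPKM in WT naive and 62.4, 53.8 and 1309 in WT GC libraries. Jun, the partner of FOS, was at 43.2, 58.6 and 50.2 RPKM in WT naive and 8.28, 8.68 and 317 in WT GC libraries. In all 3 genes WT GC replicate 3 was the highest of the 6 libraries, and for Nr4a1 and Jun WT GC replicates 1 and 2 lay below every naive library. None of the 3 was called in the fit of all 12 libraries. Egr1, an antigen-induced zinc finger gene, was at 73.4, 103 and 103 RPKM in WT naive and 167, 144 and 323 in WT GC libraries and rose (log2 fold change 1.10, standard error 0.31, limma adjusted p = 0.0102). The summed level of the 22 genes of the list was 5861, 6367 and 6363 RPKM in WT naive and 3501, 3256 and 13130 in WT GC libraries. The phosphatases and Sprouty proteins that damp MAPK signaling held 6 genes higher and 4 lower of 16. Dusp10 rose by 1.45, and Dusp7 fell by 1.18. Dusp6, a phosphatase of ERK, was at 193, 188 and 235 RPKM in WT naive and 90, 108 and 178 in WT GC libraries (log2 fold change -0.76, limma adjusted p = 0.0197), a call lost without WT naive replicate 3 (limma adjusted p = 0.0689), WT GC replicate 1 (0.0844) or WT GC replicate 2 (0.0645).

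**Figure D4:**
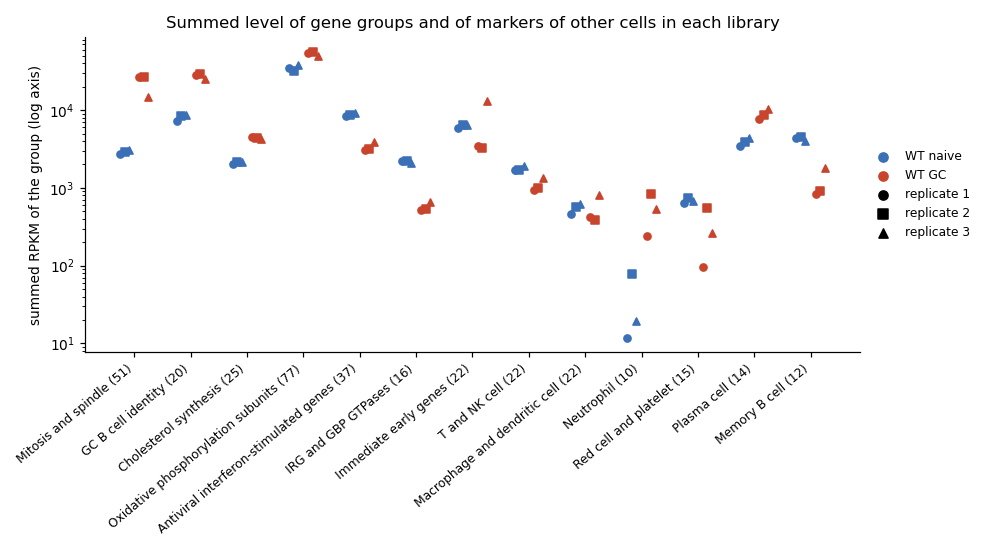
Summed RPKM of 7 gene groups and of the markers of 6 other cell populations in each of the 6 WT libraries, on a log axis, with the number of genes in brackets. Circles, squares and triangles are replicates 1, 2 and 3, blue for WT naive and red for WT GC. WT GC replicate 3 is the highest library for immediate early genes, and its level of mitosis genes lies between those of the naive and the other GC libraries.

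Genes of cell division rose almost without exception. All 43 DNA replication genes tested rose, with a median log2 fold change of 2.37, and 50 of 51 mitosis and spindle genes rose, with a median of 3.75. Pttg1 (securin) was the mitosis gene not called, at a log2 fold change of 0.10 (named, like the other single exceptions here, after the values were seen). Mcm2, a subunit of the replicative helicase, was at 125, 124 and 136 RPKM in WT naive and 874, 899 and 688 in WT GC libraries (log2 fold change 2.66, standard error 0.17, limma adjusted p = 2.02e-06). Rrm2, the small subunit of ribonucleotide reductase, was at 39.8, 57.1 and 57.6 RPKM in WT naive and 976, 920.3 and 527 in WT GC libraries (log2 fold change 3.91, standard error 0.39, limma adjusted p = 1.18e-05). Mki67, the proliferation marker Ki-67, was at 57.7, 88.1 and 88.8 RPKM in WT naive and 2037, 1984 and 1199 in WT GC libraries (log2 fold change 4.45, standard error 0.42, limma adjusted p = 8.26e-06). For these 3 genes WT GC replicate 3 was the lowest GC library and lay above every naive value. Plk1, the mitotic kinase, was at 11.5, 16.1 and 12.5 RPKM in WT naive and 388, 349 and 145.9 in WT GC libraries (log2 fold change 4.25, standard error 0.47, limma adjusted p = 2.16e-05), and Cdk1, its partner in mitotic entry, at 13, 19.3 and 24.7 RPKM in WT naive and 366, 397 and 182 in WT GC libraries (log2 fold change 3.95, standard error 0.43, limma adjusted p = 1.93e-05). Kif23, a motor of the dividing cell's midzone, rose by 3.75 and the transcription factor gene Foxm1 by 3.31. The summed level of the 51 mitosis genes was 2743, 2886 and 3107 RPKM in WT naive and 27030, 27090 and 14640 in WT GC libraries.

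Cyclins and E2F factors were not uniform. Of 28 genes 19 rose and 6 fell. Among the D cyclins, Ccnd3, which sustains GC B cell division, was at 229, 226 and 275 RPKM in WT naive and 1248, 1153 and 773 in WT GC libraries (log2 fold change 2.09, standard error 0.20, limma adjusted p = 9.12e-06). Ccnd2, the D cyclin of freshly activated B cells, was at 157, 191 and 212 RPKM in WT naive and 51.1, 43.5 and 71 in WT GC libraries and fell (log2 fold change -1.76, standard error 0.27, limma adjusted p = 0.000189). Myc was at 219, 249 and 215 RPKM in WT naive and 155, 142 and 541 in WT GC libraries, highest in WT GC replicate 3 and below every naive library in the other GC libraries, and was not called. The E2F repressor gene E2f7 was at 2.52, 2.58 and 1.87 RPKM in WT naive and 74.2, 63.9 and 37.4 in WT GC libraries and the activator gene E2f1 at 23.5, 31.3 and 34.4 RPKM in WT naive and 222, 225 and 190.3 in WT GC libraries. Rb1, the retinoblastoma gene that restrains E2F, was at 240.4, 236 and 232 RPKM in WT naive and 62.4, 64.5 and 85.1 in WT GC libraries (log2 fold change -1.74, standard error 0.14, limma adjusted p = 4.18e-06).

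The promoters of mitosis genes often held a different sequence. The cell cycle genes homology region (CHR), which binds the DREAM and MuvB complexes, was searched as TTTGAA on both strands of the same 300-base windows. It was present in 30 of 41 mitosis and spindle promoters (73.2%) and in 12.1% of all 9583. In DNA replication promoters it was present in 3 of 35 (8.57%), while the E2F site TTTGGCGC was present in 6 of those 35 (17.1%) against 1.04% of all. The CCAAT box was present in 32 of 41 mitosis promoters (78.0%) and in 14 of 18 cholesterol synthesis promoters (77.8%), against 38.9% of all. A sterol element, searched as TCACNCCAC, was present in 1 of the 18 cholesterol synthesis promoters (5.56%) and in 1.02% of all. The CHR was also present in 4 of 9 IRG and GBP promoters (44.4%), a group that fell. Among all genes called at least 2-fold higher the CHR was present in 16.7% of promoters, and among those at least 2-fold lower in 14.4%. Shown are 4 promoters of mitosis genes that rose, with the CHR in capitals, because each has a match close to its start site. They lie in GRCm38 at chr7:122159185-122159484 (plus strand) for Plk1, chr10:69352863-69353162 (minus strand) for Cdk1, chr9:70421505-70421804 (minus strand) for Ccnb2 and chr9:61946750-61947049 (minus strand) for Kif23.
Plk1: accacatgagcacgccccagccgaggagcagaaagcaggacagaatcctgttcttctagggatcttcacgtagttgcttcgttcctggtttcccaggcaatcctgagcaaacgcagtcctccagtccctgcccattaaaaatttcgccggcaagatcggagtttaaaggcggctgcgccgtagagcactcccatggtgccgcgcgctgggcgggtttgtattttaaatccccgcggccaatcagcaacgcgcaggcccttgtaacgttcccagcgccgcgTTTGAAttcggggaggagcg
Cdk1: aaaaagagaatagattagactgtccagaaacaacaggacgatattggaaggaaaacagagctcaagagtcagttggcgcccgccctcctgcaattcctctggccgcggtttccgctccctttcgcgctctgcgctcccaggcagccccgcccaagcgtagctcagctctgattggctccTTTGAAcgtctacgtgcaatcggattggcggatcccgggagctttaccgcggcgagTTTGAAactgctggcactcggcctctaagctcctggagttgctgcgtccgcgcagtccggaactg
Ccnb2: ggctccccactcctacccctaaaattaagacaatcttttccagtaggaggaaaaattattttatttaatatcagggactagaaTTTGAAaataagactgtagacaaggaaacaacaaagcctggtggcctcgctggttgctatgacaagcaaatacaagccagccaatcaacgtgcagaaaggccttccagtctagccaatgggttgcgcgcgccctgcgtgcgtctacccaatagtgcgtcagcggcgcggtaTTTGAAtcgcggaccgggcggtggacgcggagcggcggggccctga
Kif23: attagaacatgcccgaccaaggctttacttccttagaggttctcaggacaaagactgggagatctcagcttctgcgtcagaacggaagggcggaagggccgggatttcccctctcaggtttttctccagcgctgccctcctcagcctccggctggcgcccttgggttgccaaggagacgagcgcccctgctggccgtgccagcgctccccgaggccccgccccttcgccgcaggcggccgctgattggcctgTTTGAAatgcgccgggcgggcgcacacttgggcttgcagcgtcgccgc
Cdk1 and Ccnb2 held 2 matches each and Plk1 and Kif23 held 1, all in the direction of the gene. Ccnb2, which encodes cyclin B2, was named for its promoter, outside the naming rule, and had a log2 fold change of 4.32.

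Genes of DNA repair mostly rose. Of 38 genes of DNA break repair and checkpoint control 29 rose and 2 fell, with a median log2 fold change of 1.13. Chek1, the checkpoint kinase, was at 6.98, 11.2 and 15.5 RPKM in WT naive and 128, 138 and 102 in WT GC libraries (log2 fold change 3.39, standard error 0.31, limma adjusted p = 7.34e-06). Brca1 rose by 2.77 and the end-resection gene Nbn by 1.25. Of 20 genes of antibody gene mutation and lesion repair 15 rose and 1 fell. Ung, the uracil glycosylase, was at 29.9, 37.4 and 33.3 RPKM in WT naive and 189, 166 and 130.1 in WT GC libraries (log2 fold change 2.23, standard error 0.20, limma adjusted p = 6.11e-06). Polh, the error-prone polymerase that mutates A and T bases, was at 67.5, 76.2 and 78.3 RPKM in WT naive and 635, 625 and 320.2 in WT GC libraries (log2 fold change 2.75, standard error 0.29, limma adjusted p = 1.48e-05), and the mismatch recognition gene Msh6 was at 122, 124 and 129 RPKM in WT naive and 490.5, 539 and 421 in WT GC libraries (log2 fold change 1.94, standard error 0.14, limma adjusted p = 2.43e-06). The 3 genes were each higher in all GC libraries.

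Chromatin genes changed in composition. Of 21 genes of histone variants and chaperones 17 rose and 1 fell. H1f0, a linker histone gene, was at 5.02, 13.7 and 11.5 RPKM in WT naive and 167, 182 and 127 in WT GC libraries and the damage-associated variant H2afx at 145.8, 159.8 and 162 RPKM in WT naive and 1733, 1497 and 1026 in WT GC libraries. The replication-dependent histone genes, whose mRNA mostly lacks a poly-A tail, had 25 of 55 tested called higher and 3 lower. Among 27 Polycomb and DNA methylation genes 15 rose and 11 fell. Ezh2, the H3K27 methyltransferase required in GCs, was at 89.4, 108 and 123 RPKM in WT naive and 696, 687 and 499 in WT GC libraries (log2 fold change 2.54, standard error 0.20, limma adjusted p = 3.16e-06). Its relative Ezh1 was at 207, 214 and 195 RPKM in WT naive and 77.3, 76.6 and 88.9 in WT GC libraries and fell (log2 fold change -1.33, standard error 0.09, limma adjusted p = 2.38e-06). Dnmt1, the maintenance DNA methyltransferase, was at 205, 225 and 205 RPKM in WT naive and 1209, 1142 and 833 in WT GC libraries (log2 fold change 2.30, standard error 0.18, limma adjusted p = 3.5e-06), while Tet2, which oxidizes methylcytosine, was at 66.9, 69.9 and 72.3 RPKM in WT naive and 16.7, 17.8 and 27.4 in WT GC libraries (log2 fold change -1.74, standard error 0.25, limma adjusted p = 0.000123). Phf19, a Polycomb-associated gene, rose by 3.74, and Cbx7, a reader of the Polycomb mark, fell by 1.47. Among 40 enzymes of histone methylation and acetylation 14 rose and 12 fell, close to the shares of all genes tested. Suv39h1, an H3K9 methyltransferase gene, rose by 1.65, and Kdm5b, an H3K4 demethylase gene, fell by 2.37.

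Genes of mitochondrial respiration mostly rose, by small amounts. Of 77 oxidative phosphorylation subunits 60 rose and 1 fell, with a median log2 fold change of 0.56. Cox5a, a subunit of cytochrome oxidase, was at 431, 378 and 453 RPKM in WT naive and 795, 844 and 746 in WT GC libraries (log2 fold change 0.92, standard error 0.09, limma adjusted p = 8.83e-06). Atp5a1, a subunit of ATP synthase, was at 1621, 1533 and 1711 RPKM in WT naive and 3256, 3349.9 and 2802 in WT GC libraries (log2 fold change 0.95, standard error 0.09, limma adjusted p = 9.12e-06). Of 13 TCA cycle genes 8 rose and none fell, among them Cs, citrate synthase, at 455, 439.8 and 420.4 RPKM in WT naive and 861, 823 and 734 in WT GC libraries (log2 fold change 0.88, standard error 0.10, limma adjusted p = 1.95e-05). The summed level of the 77 subunits was 34430, 31580 and 38420 RPKM in WT naive and 53620, 56840 and 49220 in WT GC libraries, with all GC libraries above the naive ones. Fatty acid oxidation held 8 of 18 genes lower and 5 higher, with a median of -0.06. Acadm, the medium-chain dehydrogenase, was at 173, 159.9 and 162 RPKM in WT naive and 110.4, 111 and 117 in WT GC libraries (log2 fold change -0.55, standard error 0.06, limma adjusted p = 2.46e-05). Cpt1a, which controls entry of fatty acids into mitochondria, was at 264, 307 and 251 RPKM in WT naive and 282, 261 and 217 in WT GC libraries and was not called.

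Genes of glucose metabolism mostly rose. Of 30 genes of glycolysis and the pentose phosphate pathway 18 rose and 6 fell, with a median of 0.45. Hk2, a hexokinase gene, was at 14.3, 14.2 and 12.9 RPKM in WT naive and 38.4, 36.9 and 50.1 in WT GC libraries (log2 fold change 1.52, standard error 0.21, limma adjusted p = 0.000113). Ldha, lactate dehydrogenase A, was at 541, 548 and 595 RPKM in WT naive and 1272, 1416 and 1098 in WT GC libraries (log2 fold change 1.16, standard error 0.13, limma adjusted p = 2.08e-05). Tkt, transketolase, rose by 1.29 and the lactate transporter gene Slc16a1 by 1.58. The glucose transporter gene Slc2a1 was at 177, 178 and 167 RPKM in WT naive and 89.7, 104 and 169.7 in WT GC libraries and was not called, and Slc2a3 fell by 1.51. Gapdh, at 7.2, 8.74 and 9.27 RPKM in WT naive and 18.2, 20.2 and 16.8 in WT GC libraries, has many near-identical copies in the genome, and its level is uncertain for that reason. Of 13 hypoxia genes 7 fell and 1 rose, and the 1 was Hif1a, which encodes a subunit of the factor HIF itself, by 0.37. Pfkfb4, a target of HIF, was at 71.6, 74.6 and 65.1 RPKM in WT naive and 13.6, 14.7 and 25.2 in WT GC libraries (log2 fold change -1.97, standard error 0.21, limma adjusted p = 1.63e-05).

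Biosynthesis of nucleotides and sterols rose. Of 30 genes of nucleotide and one-carbon synthesis 26 rose and 3 fell, with a median log2 fold change of 0.75. Mthfd2, the mitochondrial folate enzyme, was at 51.3, 63 and 61.1 RPKM in WT naive and 345, 352 and 282 in WT GC libraries (log2 fold change 2.46, standard error 0.17, limma adjusted p = 2.38e-06). Psat1 of serine synthesis rose by 2.39, Dck of nucleoside salvage by 2.11 and Shmt2 by 1.38. Of 25 cholesterol synthesis genes 23 rose and 2 fell, with a median of 1.22. Sqle, squalene epoxidase, was at 37, 49.7 and 50.1 RPKM in WT naive and 266, 252 and 214 in WT GC libraries (log2 fold change 2.40, standard error 0.15, limma adjusted p = 1.84e-06). Hmgcs1, the synthase early in the pathway, was at 94.2, 102 and 113 RPKM in WT naive and 369, 383 and 297 in WT GC libraries (log2 fold change 1.75, standard error 0.15, limma adjusted p = 4.31e-06). Fatty acid synthesis had 10 of 13 genes higher. Fads2, a desaturase of polyunsaturated fatty acids, was at 1.1, 4.42 and 4.49 RPKM in WT naive and 99, 93.9 and 57 in WT GC libraries (log2 fold change 4.37, standard error 0.45, limma adjusted p = 1.4e-05). Scd1, a desaturase of saturated fatty acids, was at 2006, 1820.2 and 1697 RPKM in WT naive and 767, 729 and 1056 in WT GC libraries and fell (log2 fold change -1.13, standard error 0.16, limma adjusted p = 0.000112), so these desaturases went in opposite directions.

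Most genes of translation initiation, tRNA charging, mitochondrial ribosomes and the proteasome rose. Translation initiation factors had 40 of 54 genes higher and 4 lower, tRNA synthetases 15 of 20 higher, mitochondrial ribosomal proteins 53 of 77 higher and 3 lower, and ribosome biogenesis factors 16 of 30 higher and 3 lower. Aars, alanyl-tRNA synthetase, was at 129, 131 and 124 RPKM in WT naive and 441, 419 and 369 in WT GC libraries (log2 fold change 1.67, standard error 0.11, limma adjusted p = 2.13e-06). Of 76 cytosolic ribosomal protein genes 26 were called lower and 9 higher, with a median of -0.18. Without WT naive replicate 3 or WT GC replicate 1 the count lower was 17, and without WT naive replicate 2 or WT GC replicate 2 the count higher was 5. Rps24 was at 724, 599.9 and 741 RPKM in WT naive and 444, 487 and 449 in WT GC libraries (log2 fold change -0.58, standard error 0.10, limma adjusted p = 0.000583). Many genes of this family have near-identical copies, which makes their levels uncertain. The proteasome had 34 of 37 subunits higher and none lower, with a median of 0.64. Psmd14, the deubiquitinase of its lid, was at 253, 258 and 289 RPKM in WT naive and 614, 653 and 505 in WT GC libraries (log2 fold change 1.14, standard error 0.10, limma adjusted p = 5.55e-06). Lysosome and autophagy genes went the other way, with 14 of 32 lower and 2 higher, and Psap, the precursor of saposins, was at 2546, 2601 and 2379.8 RPKM in WT naive and 714, 709.5 and 1321 in WT GC libraries (log2 fold change -1.52, standard error 0.25, limma adjusted p = 0.000322). The unfolded protein response and secretion genes had 14 of 31 higher and 3 lower, with Xbp1, the factor of secretory cells, at 291, 332 and 337 RPKM in WT naive and 489.8, 554 and 610.2 in WT GC libraries (log2 fold change 0.78, limma adjusted p = 0.00138). Splicing factors had 30 of 39 higher and 2 lower, and Hnrnpab rose by 1.42.

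The cytoskeleton, the cell surface and transport changed gene by gene. Of 15 tubulins and stathmin 9 rose and 3 fell, with Stmn1, a regulator of microtubule assembly, at 10.9, 12.8 and 12.4 RPKM in WT naive and 232, 198 and 125 in WT GC libraries (log2 fold change 3.79, standard error 0.31, limma adjusted p = 4.07e-06). Of 28 actin cytoskeleton genes 15 rose and 6 fell. Cfl1, the actin-severing cofilin, was at 2737, 2761 and 2972 RPKM in WT naive and 6698, 6809 and 5974 in WT GC libraries (log2 fold change 1.20, standard error 0.11, limma adjusted p = 5.86e-06), and Rdx, the membrane linker radixin, was at 242, 207 and 217 RPKM in WT naive and 37.8, 41 and 62.7 in WT GC libraries (log2 fold change -2.24, standard error 0.22, limma adjusted p = 9.77e-06). Glycan and sialic acid enzymes had 12 of 41 higher and 15 lower, and these shares too were close to those of all genes. The GL7 epitope used in the sort is a sialylated glycan that appears when Cmah is low. Cmah, which makes N-glycolylneuraminic acid, was at 299, 315 and 327 RPKM in WT naive and 46.3, 50 and 92.4 in WT GC libraries (log2 fold change -2.37, standard error 0.29, limma adjusted p = 4.5e-05), and the sort by GL7 and PNA chose cells by such glycans. St3gal1, which caps the glycan that PNA binds, was at 414, 347 and 413 RPKM in WT naive and 64.4, 63.7 and 128 in WT GC libraries (log2 fold change -2.26, standard error 0.29, limma adjusted p = 5.86e-05). Fut8, the core fucosyltransferase, rose by 2.56. Ion channels had 7 of 21 higher and 12 lower. Trpm5, a calcium-activated cation channel gene, was at 6.1, 6.79 and 6.82 RPKM in WT naive and 86.8, 91.9 and 88.5 in WT GC libraries (log2 fold change 3.57, standard error 0.28, limma adjusted p = 3.5e-06), and Kcnn4, a calcium-activated potassium channel gene, at 59.6, 59.7 and 53.2 RPKM in WT naive and 295, 317 and 308 in WT GC libraries (log2 fold change 2.40, standard error 0.18, limma adjusted p = 2.57e-06). Among 203 solute carriers 53 rose and 74 fell, not far from the shares of all genes. Slc1a4, a neutral amino acid transporter gene, was at 1.59, 1.83 and 1.88 RPKM in WT naive and 13.8, 16.8 and 16.7 in WT GC libraries (log2 fold change 2.59, standard error 0.16, limma adjusted p = 1.84e-06), and Slc28a2, a nucleoside transporter gene, fell by 1.14.

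MicroRNA machinery leaned downward, with 8 of 14 genes lower and 3 higher. Dicer1, which cuts precursor miRNAs, was at 138, 142 and 128 RPKM in WT naive and 61.8, 57.5 and 62.8 in WT GC libraries (log2 fold change -1.15, standard error 0.11, limma adjusted p = 7.07e-06). Drosha, the nuclear enzyme of the same pathway, was at 48.3, 44.9 and 43.5 RPKM in WT naive and 94.8, 95.1 and 88.6 in WT GC libraries and rose (log2 fold change 1.01, standard error 0.09, limma adjusted p = 4.94e-06). Ago2, the slicing argonaute, was at 142, 173 and 145.7 RPKM in WT naive and 152, 137 and 172 in WT GC libraries and was not called. Among long noncoding RNAs Neat1, the scaffold of paraspeckles, was at 918, 1240.2 and 893 RPKM in WT naive and 227, 219.5 and 387 in WT GC libraries (log2 fold change -1.90, standard error 0.33, limma adjusted p = 0.000479), and Malat1 fell by 1.06. Mir17hg, the host gene of the miR-17 to miR-92 cluster, was at 137, 129.5 and 154 RPKM in WT naive and 86.3, 77.4 and 55.1 in WT GC libraries and fell (log2 fold change -0.95, standard error 0.25, limma adjusted p = 0.00697).

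Markers of zones and of other cells bear on what the gates held. Of 10 dark zone genes 7 rose and none fell, and of 14 light zone genes 6 rose and 2 fell (4 without WT GC replicate 3). Cd83 was at 879.9, 997 and 1295 RPKM in WT naive and 1221, 1258 and 2289 in WT GC libraries and was not called. The summed level of 12 memory B cell genes was 4418, 4570 and 4006 RPKM in WT naive and 841, 904 and 1809 in WT GC libraries, with 9 lower and 1 higher. Nt5e (CD73) was the 1 that rose, from 9.46, 11.3 and 11.6 RPKM in WT naive to 247, 282 and 248 in WT GC libraries. Of 22 T and NK cell genes 21 were tested, with 12 lower and 4 higher, and their sum was 1714, 1698 and 1891 RPKM in WT naive and 950.5, 999.9 and 1337 in WT GC libraries. Most of that sum was Cd2 and Lck, which B cells also express, and the T cell gene Cd3e was at 0, 0.403 and 0.224 RPKM in WT naive and 0.812, 1.04 and 2.6 in WT GC libraries. Cd3e was called higher, a call lost without any 1 of WT naive replicates 1, 2 and 3 or WT GC replicates 2 and 3 (limma adjusted p between 0.0527 and 0.146). Macrophage and dendritic cell genes summed to 460.2, 566 and 624 RPKM in WT naive and 424, 387 and 806 in WT GC libraries, with 4 of 20 higher (1 without WT naive replicate 1 or WT GC replicate 3, and 2 without WT naive replicate 2 or 3) and 4 lower. The macrophage gene C1qa was at 2.13, 5.6 and 8.01 RPKM in WT naive and 8.6, 3.86 and 41.6 in WT GC libraries and was not called.

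Neutrophil genes stood out among these. Their 10 genes summed to 11.8, 78.4 and 19.4 RPKM in WT naive and 239, 840.5 and 535 in WT GC libraries, with 8 higher, 3 without WT naive replicate 1 or 3, and 4 without WT GC replicate 2 or 3. In B-KO mice none of the 10 was called, with a median log2 fold change of 1.152 against 3.191 in WT. Camp, a neutrophil gene of the list, was at 39, 4.18 and 0 RPKM in B-KO naive and 5.61, 49.7 and 37.5 in B-KO GC libraries. S100a8, an abundant neutrophil gene, was at 5.08, 23.8 and 6.61 RPKM in WT naive and 75.6, 268 and 161 in WT GC libraries (log2 fold change 3.83, standard error 1.25, limma adjusted p = 0.0201). Its call was lost without WT naive replicate 1 (limma adjusted p = 0.0661), WT naive replicate 3 (0.0577) or WT GC replicate 2 (0.0672). Red cell and platelet genes summed to 635, 738 and 685 RPKM in WT naive and 95.7, 549 and 265 in WT GC libraries, with 5 of 13 lower and none higher. Of 16 genes of stroma and follicular dendritic cells 3 were tested, and the follicular dendritic cell chemokine gene Cxcl13 was at 0.567, 0.249 and 0 RPKM in WT naive and 1.25, 0.257 and 0.32 in WT GC libraries. The part of other cells in the changes above was not tested beyond these levels.

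The same comparison was made in B-KO mice. Their GC libraries were uneven as well. Ddx3y was at 281, 281 and 0 RPKM in B-KO GC replicates 1, 2 and 3, and at 0 in the B-KO naive libraries. Fos was at 456, 874 and 20.6 RPKM in the same B-KO GC libraries. The part of this unevenness in the values below was not tested. limma called 4116 genes higher in B-KO GC than in B-KO naive libraries (30.0%) and 3768 lower (27.5%), and the 2 comparisons share no library, though they share the estimate of the spread. Of the genes called higher in WT, 3748 were also called higher in B-KO (86.2% of the WT list and 91.1% of the B-KO list), and of those called lower 3446 (83.2% and 91.5%). No gene was called in opposite directions. The difference of the GC effect between B-KO and WT was called for 3 genes by limma, with 462 at an unadjusted p under 0.05 (967 without WT GC replicate 3 and 1683 with array quality weights), and for 0 by limma voom on recovered reads, with 481 at an unadjusted p under 0.05. The median of the antiviral interferon-stimulated genes was -1.86 in WT, with 35 of 37 lower, and -0.99 in B-KO, with 24 lower. The median of the GC identity genes was 4.08 in WT and 3.14 in B-KO, and that of the mitosis genes 3.75 and 2.96. A difference between these medians was not tested. S1pr2 had a log2 fold change of 6.02 in WT and 3.98 in B-KO, Ccr7 of -3.10 and -2.52, and Isg15 of -1.20 and -0.06. None of these differences between genotypes was called.

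**Figure D5:**
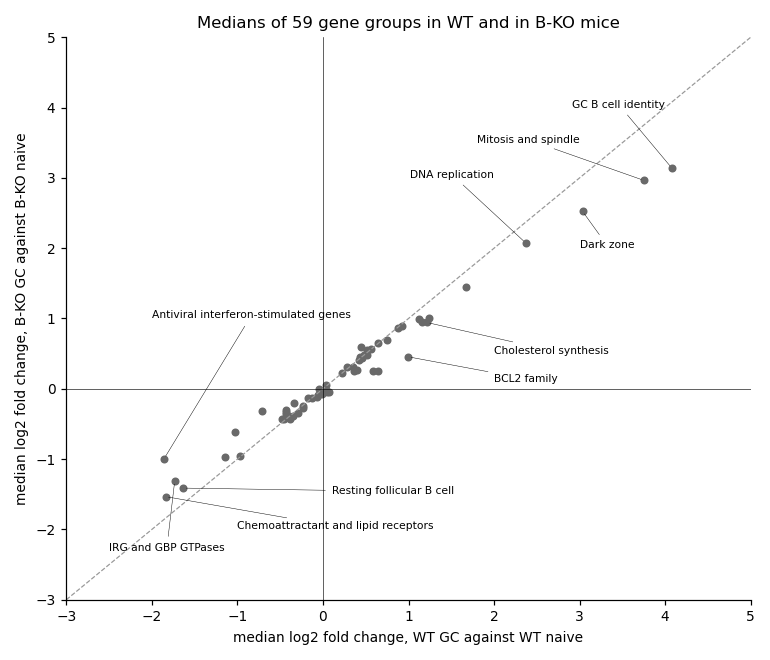
Medians of 59 gene groups in WT and B-KO mice. The horizontal axis gives the median log2 fold change of WT GC against WT naive and the vertical axis that of B-KO GC against B-KO naive, and the dashed line marks equal values. The labelled groups with the largest medians are nearer to 0 in B-KO, such as 4.08 against 3.14 for GC identity and -1.86 against -0.99 for interferon-stimulated genes.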

How the data were processed

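RNA was extracted from sorted cells with the miRNeasy kit and libraries were made with the TruSeq kit and sequenced on an Illumina HiSeq instrument. The labels name total RNA with small RNAs, and the study's methods name poly-A selection. Per the file headers, the RPKM values deposited by the authors were counted by HOMER per RefSeq transcript of mm10 on both strands, after alignment with STAR 2.2.0c, and scaled to 10000000 (the processing notes also name mm9). The version of HOMER is not given in the sources used here.

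Where a symbol had several transcripts, only that of greatest average RPKM was used. limma 3.58.1 in R 4.3.3 modelled log2(RPKM + 1), using 4 groups and an intensity trend, and p-values were adjusted by Benjamini-Hochberg over 13704 genes, with a threshold of 0.05. A fold change on this scale understates the change of low genes. Genes whose reads are shared by near-identical copies or by antisense partners are uncertain. In simulated data the method recovered 3 of 67 changes of 1.5-fold, 42 of 67 of 2-fold and 66 of 66 of 4-fold, with 10 false calls. A gene that was not called may therefore still differ by a small fold. The simulation changed far fewer genes than were called here. The members and gene lists were chosen with earlier results of these data known. Genes were named by rule: the 12 largest rises and 12 largest falls among called genes without overlap, of at least 200 bases and 20 RPKM in the higher group, the key genes of each list with up to 4 further members of smallest p, and the 6 most abundant genes of each group. Some genes that this rule names are not reported here. Replicates are biological per the study's methods, and precision is limited by 3 libraries a group. Motifs were searched in RefSeq promoters (GRCm38.p6) matched to 9583 genes. Alternatives covered pseudocounts, filters, normalization, libraries left out, weights, covariates and voom.

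Same-numbered naive and GC libraries did not deviate together (correlations -0.039 to 0.018), so that the numbers were not taken to pair the libraries.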

Additional observations from a re-analysis of the deposited data

Results flagged for a closer look

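The change from naive to GC cells differed between B-KO and WT for 3 microRNA genes by the test of the difference itself (limma interaction). The GC effect in B-KO minus that in WT was -2.81 for Mir24-1, -2.85 for Mir7074 and -2.01 for Mir6345 on the log2 scale. These transcripts are shorter than 200 bases and rest on single reads. Mir24-1 had 2, 1 and 1 reads in the WT GC libraries and 0 in all other libraries. Mir7074 and Mir6345 each had 1, 1 and 1 reads in the B-KO naive libraries and 0 elsewhere. Each read is worth a large RPKM in so short a transcript.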

How the results depend on the processing

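The count of genes called higher stayed between 3795 and 4887 over the alternatives with 1 transcript per gene (3918 to 4328 without 1 library), and the count called lower between 3641 and 4768 (3664 to 4108 without 1 library). Testing every transcript gave 6491 higher and 6388 lower of a larger number of features. Quantile normalization moved the split to 3884 higher and 4571 lower. Removal of the trend with transcript length, chosen after seeing the data, gave 4448 and 4015. A replicate block gave 3929 and 3753, with 0 genes for the difference between B-KO and WT, and the block is no pairing since the animals differed. Of 462 named genes 414 were called. Of these, 384 stayed called under each of the 20 alternatives in which they were tested, and a filter can remove a gene from the test. The number of genes called for the difference between B-KO and WT, 3 in the report, was 1 with a pseudocount of 10, 9 with no filter, 0 with RPKM of at least 10, 0 with transcripts of at least 200 bases, 0 with voom on recovered reads, 1 with Y-linked expression as a covariate and 1 to 2 without 1 library. At an unadjusted p under 0.05 that difference took in 462 genes, and 967 without WT GC replicate 3 or 1683 with array weights. The median of the immediate early genes reversed to -0.487 with array weights, to -0.567 with the Y-linked covariate and to -0.601 without WT GC replicate 3, and reached 1.219 without WT GC replicate 2. The median of the macrophage and dendritic cell genes reversed to -0.12 with the Y-linked covariate, that of the stroma genes became -0.955 with RPKM of at least 10, where fewer genes were tested, and Atm reversed to 0.097 with the length trend removed. Apart from that last construction, the cause of each change was not tested.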
